A study of Mus musculus with 16 samples.

Results

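The genes described here are 10 liver enzymes of methionine, one-carbon and taurine metabolism. They were taken as all probes whose platform gene symbol was Csad, Cdo1, Cth, Cbs, Bhmt, Gnmt, Mat1a, Dmgdh, Shmt1 or Ahcy, which gave 13 probes for the 10 genes among 9095 genes tested in all. They were measured on 16 Illumina mouse BeadChips, 1 for each liver sample of male C57Bl/6Hsd mice aged 10 months. The 4 groups of 4 were wild type on chow, SHP-/- on chow, wild type on western diet and SHP-/- on western diet, and each diet was given for 6 months from the age of 4 months. All mice were fasted overnight before the liver was taken. SHP, the product of Nr0b2, is a nuclear receptor that binds no DNA itself and represses other receptors. The labels describe the mice only as SHP-/-, without the construct or a tissue restriction, so the loss is not limited to hepatocytes as far as they state.

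Methionine is turned into S-adenosylmethionine, the methyl donor of the cell, by the liver enzyme encoded by Mat1a. Gnmt, glycine N-methyltransferase, spends S-adenosylmethionine to make sarcosine, and Ahcy splits the S-adenosylhomocysteine left over into homocysteine and adenosine. Homocysteine is either methylated back to methionine by Bhmt with betaine, or committed to cysteine through Cbs and then Cth, the route called transsulfuration. Dmgdh oxidises the dimethylglycine that Bhmt releases, and Shmt1 moves a carbon unit between serine and folate. Cysteine is oxidised by Cdo1 to cysteine sulfinate, which Csad decarboxylates on the way to taurine, the amino acid that mouse liver joins to bile acids.

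Each array gave a raw mean signal between 262 and 384 and detected 43.6% to 51.1% of its probes. The single Nr0b2 probe was detected in 0 of 16 arrays (raw signal 47.1 to 59.7), so the genotype labels could not be checked from the targeted gene. Of 7 hepatocyte markers tested, Ttr, Apoa1, Hnf4a, Serpina1a, Ahsg and Hpx were detected in all 16 arrays. The Alb probe was detected in 8 (among chow samples 0 of 4 wild type and 3 of 4 knockout, among western diet samples 1 of 4 and 4 of 4), and the Fgb probe, not tested, in 0. The summed level of the 7 on the linear scale spanned 146000 to 161000 in wild type on chow, 151000 to 157000 in knockout on chow, 153000 to 158000 in wild type on western diet and 146000 to 161000 in knockout on western diet. These levels follow a quantile step that gives every array the same distribution. Sums of bright probes are thereby held close, so they cannot show whether hepatocyte content was equal. Of the 13 member probes 12 were detected in all 16 arrays. The exception was 1 of the 2 Cth probes, detected in no array, so Cth rests on its other probe. Levels below are log2 normalized intensities of 1 probe per gene, which compare the same probe between arrays and not one gene with another. Differences are log2 differences ± SE from limma fitted to all 16 arrays, with Benjamini-Hochberg adjusted p over 9095 genes and n = 4 per group. A gene passed at an adjusted p below 0.05. The labels number the liver samples of a group without stating that each came from its own mouse, so p-values measure the spread between these samples, which may in part be technical.

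RefSeq promoter windows of GRCm38.p6, 250 bases before to 50 after the gene start, were given for 7 of the 10 genes, 8 windows in all. Those of Csad and Bhmt are shown because Csad carried the most marked difference below, and because they were the 2 genes whose windows held CAAGGNCA. It was searched as a loose pattern, open to any base at N, for sites of LRH-1, a receptor that SHP represses. The Csad match read CAAGGGCA and the Bhmt match CAAGGTCA, and whether either is such a site was not tested. Each is written 5′ to 3′ on the minus strand, its own strand, with the match in capitals.
Csad, chr15:102205003-102205302: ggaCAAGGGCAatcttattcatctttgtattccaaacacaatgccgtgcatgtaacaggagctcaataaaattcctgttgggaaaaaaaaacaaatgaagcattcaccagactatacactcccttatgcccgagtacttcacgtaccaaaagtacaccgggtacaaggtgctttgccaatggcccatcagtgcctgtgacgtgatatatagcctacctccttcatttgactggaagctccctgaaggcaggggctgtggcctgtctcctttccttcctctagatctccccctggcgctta
Csad, chr15:102188994-102189293: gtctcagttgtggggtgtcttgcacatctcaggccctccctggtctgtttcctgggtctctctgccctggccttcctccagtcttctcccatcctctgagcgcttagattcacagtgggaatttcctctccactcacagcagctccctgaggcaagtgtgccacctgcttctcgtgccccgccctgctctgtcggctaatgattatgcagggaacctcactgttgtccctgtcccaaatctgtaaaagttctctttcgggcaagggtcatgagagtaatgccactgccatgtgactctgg
Bhmt, chr13:93637709-93638008: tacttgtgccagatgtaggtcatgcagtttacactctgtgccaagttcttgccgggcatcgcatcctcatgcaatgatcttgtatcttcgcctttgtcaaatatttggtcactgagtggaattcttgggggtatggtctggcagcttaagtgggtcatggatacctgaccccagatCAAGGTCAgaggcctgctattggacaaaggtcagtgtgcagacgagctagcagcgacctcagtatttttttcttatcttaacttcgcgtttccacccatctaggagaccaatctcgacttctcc
The match began 247 bases before the gene start in the first Csad window and 74 bases before it in Bhmt, and the second Csad window, at another annotated start, held none. CAAGGNCA, searched on both strands, was present in 6.71% of all 32851 windows. The other motifs searched, TGATGNAA of the ATF4 and C/EBP type (3.97% of windows) and CAAAGTCCA of the HNF4 type (0.475%), were in 0 of the 8. These matches are letters in a window, and binding was not measured.

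Csad, the decarboxylase of taurine synthesis, separated the genotypes completely on both diets. On chow its level was 10.47, 10.60, 10.83 and 10.79 in the wild type samples and 12.35, 12.85, 12.57 and 12.64 in the knockout samples. On western diet it was 10.29, 10.25, 10.65 and 10.56 in wild type and 12.63, 12.52, 12.55 and 12.17 in knockout. The lowest of the 8 knockout values lay above the highest of the 8 wild type values. Csad rose 3.81-fold in knockout on chow (1.93 ± 0.13, 95% interval 1.67 to 2.20, adjusted p = 4.22e-08), where it had the smallest p of all genes tested. On western diet it rose 4.07-fold (2.03 ± 0.13, adjusted p = 3.66e-09), the 5th smallest p of that comparison. Between the diets its difference was -0.23 ± 0.13 in wild type (adjusted p = 0.179) and -0.14 ± 0.13 in knockout (adjusted p = 0.555). The difference between the genotype effects on western diet and on chow was 0.09 ± 0.18 (95% interval -0.28 to 0.47, adjusted p = 0.815). Over the 28 alternatives its genotype difference stayed between 1.82 and 2.01 on chow and between 1.96 and 2.12 on western diet.

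Cdo1, the dioxygenase that supplies the substrate of Csad, gave no difference past the threshold in any of the 5 comparisons. Its level was 13.17, 13.53, 13.47 and 13.39 in wild type and 12.97, 13.45, 13.38 and 13.28 in knockout on chow. On western diet the values were 13.38, 13.29, 13.13 and 13.44 in wild type and 13.41, 13.53, 13.08 and 13.21 in knockout. The groups overlapped in every comparison. The genotype difference was -0.12 ± 0.12 on chow (95% interval -0.37 to 0.14, adjusted p = 0.802) and -0.01 ± 0.12 on western diet (95% interval -0.26 to 0.25, adjusted p = 0.980), so a change of the size seen in Csad lay outside both intervals. Its diet difference was -0.08 ± 0.12 in wild type and 0.03 ± 0.12 in knockout.

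**Figure D1:**
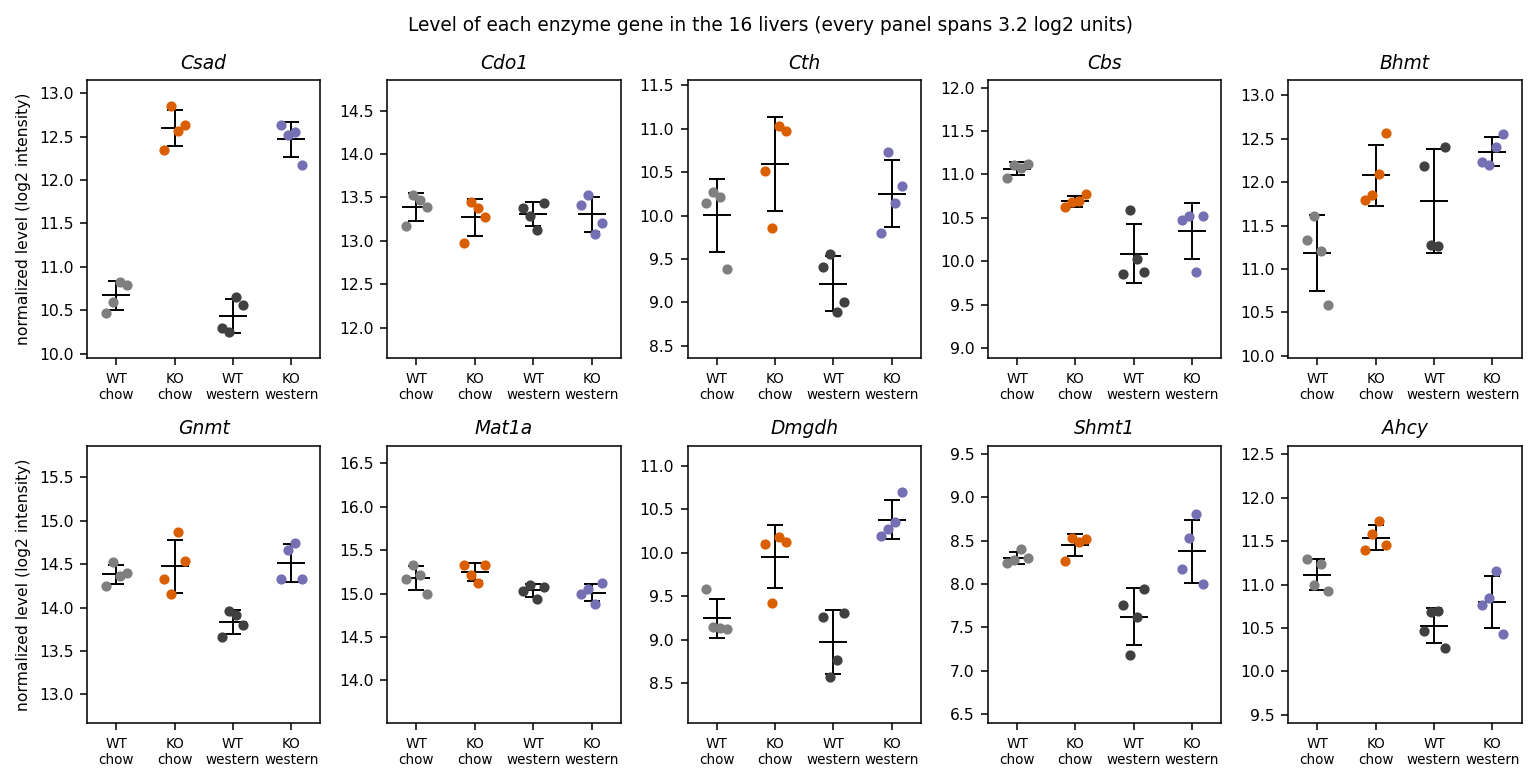
Normalized level (log2 intensity, vertical axis, each panel spanning the same range) of the 10 enzyme genes in the 16 livers, by group on the horizontal axis. WT is wild type and KO is SHP-/-, points are single liver samples, and bars are the mean and SD of 4. Csad lies between 10.25 and 10.83 in wild type and between 12.17 and 12.85 in knockout, while Cdo1 overlaps in all groups.

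In transsulfuration, both Cth and Cbs fell with western diet in wild type, and Cth rose in knockout on western diet. Cth, cystathionine gamma-lyase, was 10.15, 10.27, 10.22 and 9.38 in wild type and 10.52, 9.86, 11.03 and 10.97 in knockout on chow. With western diet the level was 9.41, 9.56, 8.89 and 9.01 in wild type and 9.80, 10.73, 10.15 and 10.34 in knockout. All knockout values lay above all wild type values on western diet, whereas the chow groups overlapped. Cth rose 2.05-fold in knockout on western diet (1.04 ± 0.25, adjusted p = 0.00537), and on chow the difference was 0.59 ± 0.25 (adjusted p = 0.369). In wild type it fell 1.73-fold on western diet (-0.79 ± 0.25, adjusted p = 0.0215). That fall did not pass with median scaling (-0.60, adjusted p = 0.101), with a robust variance prior (adjusted p = 0.0545), or when replicate 1, 2 or 3 of wild type on chow or replicate 3 or 4 of wild type on western diet was left out (adjusted p 0.0564 to 0.0685). In knockout the diet difference was -0.34 ± 0.25 (adjusted p = 0.434).

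Cbs, cystathionine beta-synthase, was 10.96, 11.11, 11.07 and 11.12 in wild type and 10.62, 10.68, 10.69 and 10.77 in knockout on chow. The western diet samples gave 9.85, 10.59, 10.03 and 9.88 in wild type and 10.48, 10.52, 9.87 and 10.52 in knockout. The chow knockout values all lay below the chow wild type values, and on western diet the genotypes overlapped. Cbs fell 1.97-fold on western diet in wild type (-0.98 ± 0.15, adjusted p = 7.15e-05), and its second detected probe gave -1.06 ± 0.14 (adjusted p = 1.32e-05 with every probe as its own feature). In knockout the diet difference was -0.35 ± 0.15 (adjusted p = 0.159), while the second probe gave -0.57 ± 0.14 (adjusted p = 0.0175), so the probes agreed in direction and not in the call. The genotype difference was -0.37 ± 0.15 on chow (adjusted p = 0.333) and 0.26 ± 0.15 on western diet (adjusted p = 0.244). It passed on chow when only the 8 arrays compared were fitted (adjusted p = 0.0359), and on western diet when wild type replicate 2 (0.43, adjusted p = 0.0288) or knockout replicate 3 (0.42, adjusted p = 0.0325) was dropped.

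Of the methionine cycle enzymes, Gnmt rose in knockout on western diet and Ahcy fell with the diet in both genotypes. Gnmt was 14.25, 14.52, 14.36 and 14.40 in wild type and 14.33, 14.16, 14.87 and 14.54 in knockout on chow. Under western diet it measured 13.66, 13.96, 13.91 and 13.80 in wild type and 14.33, 14.66, 14.74 and 14.33 in knockout. The wild type samples on western diet lay below those of the other 3 groups without overlap. The rise in knockout on western diet was 1.6-fold (0.68 ± 0.14, adjusted p = 0.00154) and the fall with diet in wild type 1.46-fold (-0.55 ± 0.14, adjusted p = 0.00556). The second Gnmt probe gave 0.79 ± 0.15 and -0.69 ± 0.15. On chow the genotype difference was 0.09 ± 0.14 (95% interval -0.20 to 0.38), and in knockout the diet difference was 0.04 ± 0.14 (95% interval -0.25 to 0.33).

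Ahcy, the S-adenosylhomocysteine hydrolase, was 11.29, 11, 11.24 and 10.92 in wild type and 11.40, 11.58, 11.73 and 11.45 in knockout on chow. For western diet the values were 10.46, 10.68, 10.69 and 10.27 in wild type and 10.76, 10.85, 11.16 and 10.43 in knockout. In each genotype the western diet values all lay below the chow values. Ahcy fell 1.5-fold with diet in wild type (-0.59 ± 0.14, adjusted p = 0.00283) and 1.67-fold in knockout (-0.74 ± 0.14, adjusted p = 0.00371). It was the only one of the 10 that passed for diet in knockout. Its genotype difference was 0.42 ± 0.14 on chow (adjusted p = 0.182), without overlap, and 0.28 ± 0.14 on western diet (adjusted p = 0.170), where it passed without knockout western replicate 4 (0.40, adjusted p = 0.0432).

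Bhmt, the betaine-dependent methyltransferase, spread widely within groups, with SDs from 0.17 to 0.60. Its level was 11.33, 11.61, 11.21 and 10.58 in wild type and 11.80, 11.85, 12.10 and 12.57 in knockout on chow. On western diet it was 12.19, 11.28, 11.26 and 12.41 in wild type, with 2 samples high and 2 low, and 12.23, 12.20, 12.41 and 12.56 in knockout. The chow knockout values all lay above the chow wild type values, and on western diet the groups overlapped. The genotype difference was 0.90 ± 0.25 on chow (95% interval 0.38 to 1.41, adjusted p = 0.106) and 0.57 ± 0.25 on western diet (adjusted p = 0.115). It passed on western diet without wild type western replicate 4 (0.78, adjusted p = 0.0282). The diet difference in wild type was 0.60 ± 0.25 (adjusted p = 0.0721), opposite in sign to that of the other 9 genes there. It passed when chow replicate 2 was left out (adjusted p = 0.0413), and likewise western replicate 2 or 3 (adjusted p = 0.0312 and 0.0286).

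Mat1a was 15.17, 15.33, 15.21 and 15 in wild type and 15.33, 15.21, 15.12 and 15.33 in knockout on chow. With western diet the level was 15.03, 15.10, 14.94 and 15.08 in wild type and 15, 15.05, 14.88 and 15.12 in knockout. The groups overlapped in every comparison, and no comparison passed. The genotype difference was 0.07 ± 0.10 on chow (95% interval -0.14 to 0.28) and -0.02 ± 0.10 on western diet (95% interval -0.23 to 0.19). Its probe was the brightest on 3 of the 16 arrays and ranked between 1 and 18 by raw signal. With median scaling, which has no quantile step, the genotype difference was -0.06 on chow (adjusted p = 0.956) and 0.01 on western diet (adjusted p = 0.957), and the diet difference -0.14 in wild type (adjusted p = 0.438) and -0.08 in knockout (adjusted p = 0.825).

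Dmgdh and Shmt1, which feed carbon units from dimethylglycine and serine, both rose in knockout on western diet. Dmgdh was 9.58, 9.15, 9.13 and 9.12 in wild type and 10.10, 9.42, 10.18 and 10.13 in knockout on chow. The western diet samples gave 9.26, 8.57, 8.76 and 9.31 in wild type and 10.19, 10.28, 10.36 and 10.70 in knockout. The genotypes did not overlap on western diet, and on chow 1 knockout sample, replicate 2, lay within the wild type range. Dmgdh rose 2.65-fold on western diet (1.41 ± 0.18, adjusted p = 2.17e-05). On chow the difference was 0.71 ± 0.18 (adjusted p = 0.0739). That value passed without knockout chow replicate 2 (0.89, adjusted p = 0.0101), when wild type western replicate 2 was dropped (0.71, adjusted p = 0.0499), with array weights (0.77, adjusted p = 0.0281), with only the arrays compared (adjusted p = 0.0476) and with the replicate block (adjusted p = 0.0324). The diet difference of Dmgdh was -0.27 ± 0.18 in wild type (adjusted p = 0.284) and 0.42 ± 0.18 in knockout (adjusted p = 0.157).

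Shmt1, the cytosolic serine hydroxymethyltransferase, was 8.24, 8.28, 8.40 and 8.30 in wild type and 8.27, 8.53, 8.48 and 8.52 in knockout on chow. Under western diet it measured 7.76, 7.18, 7.62 and 7.94 in wild type and 8.17, 8.53, 8.81 and 8.0 in knockout. As with Gnmt, wild type on western diet lay below the other 3 groups without overlap. Shmt1 rose 1.68-fold in knockout on western diet (0.75 ± 0.16, adjusted p = 0.00220) and fell 1.6-fold with diet in wild type (-0.68 ± 0.16, adjusted p = 0.00321). The fall did not pass with median scaling (-0.41, adjusted p = 0.0715). The genotype difference on chow was 0.14 ± 0.16 (95% interval -0.19 to 0.48), and the diet difference in knockout was -0.07 ± 0.16 (95% interval -0.40 to 0.26).

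Across the 10 genes, loss of SHP was called in 1 on chow, Csad, which rose, where 0.836% of all genes passed, 0.440% higher and 0.396% lower. On western diet 5 of 10 rose (Csad, Cth, Gnmt, Dmgdh and Shmt1) and 0 fell, where 19.8% of all genes passed, 8.82% higher and 11% lower. The median genotype difference of the 10 was 0.28 on chow against 0.01 over all genes, and 0.63 on western diet against 0.03. On chow knockout lay wholly above wild type in 3 of 10 (3.58% of all genes) and wholly below in 1 (2.94%, or 6.52% in either direction). On western diet it lay wholly above in 5 of 10 (9.86%) and wholly below in 0 (11.3%, or 21.2% in either direction). At an unadjusted p below 0.05 there were 6 of 10 on chow (10.7% of all genes) and 6 of 10 on western diet (32% of all genes). 

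**Figure D2:**
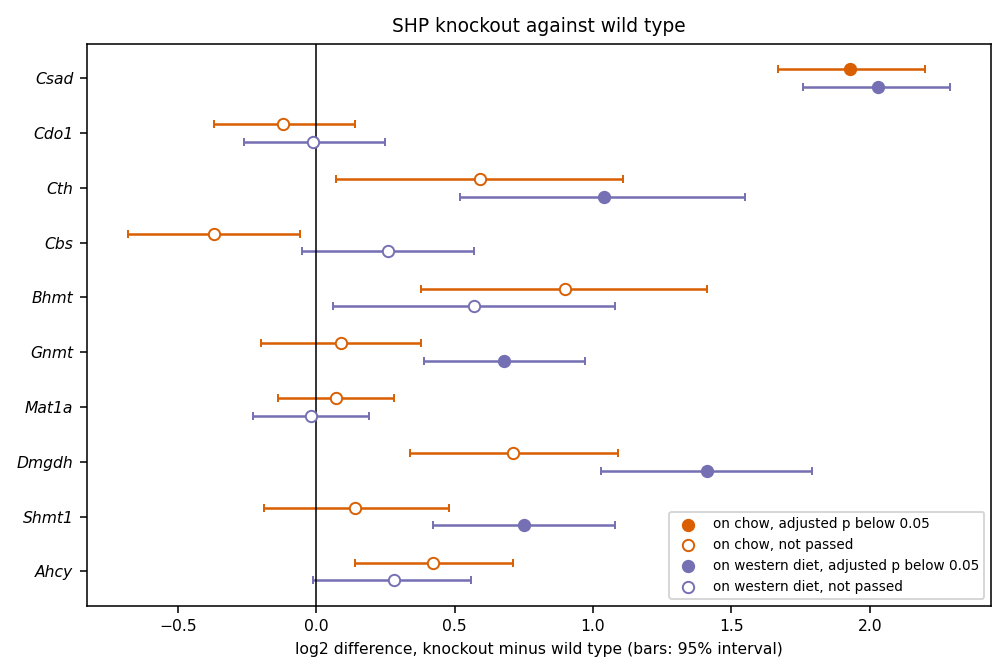
Log2 difference, knockout minus wild type, of each enzyme gene on chow (orange) and on western diet (violet), with 95% intervals from limma, n = 4 per group. Filled points passed at an adjusted p below 0.05: Csad on both diets, and Cth, Gnmt, Dmgdh and Shmt1 on western diet.

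With western diet in wild type 5 of the 10 fell (Cth, Cbs, Gnmt, Shmt1 and Ahcy) and 0 rose, where 29.6% of all genes passed, 14.1% lower and 15.5% higher. The median diet difference was -0.41 against -0.03 over all genes, and the western diet values lay wholly below chow in 4 of 10 (14.2% of all genes, with 14.8% wholly above and 29% in either direction). In knockout 1 of 10 fell (Ahcy) and 0 rose, where 7.88% of all genes passed, 3.36% lower and 4.52% higher. The median there was -0.11 against -0.01. Dmgdh lay wholly above chow (7.69% of all genes), and Cbs and Ahcy wholly below (6.68%, or 14.4% in either direction). Scaling the arrays by their medians shifted the median of all genes to 0.14 for diet in wild type and to -0.16 for genotype on western diet. Among all genes this turned 1407 up and 1286 down into 2082 and 290 for diet in wild type, and 802 and 997 into 208 and 1691 for genotype on western diet. Under it Cbs, Gnmt and Ahcy still passed for diet in wild type, and all 5 genes still passed for genotype on western diet. Relative to the median of all genes, Cth was -0.75 and -0.74 and Shmt1 -0.65 and -0.56 for diet in wild type under quantile and median scaling.

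**Figure D3:**
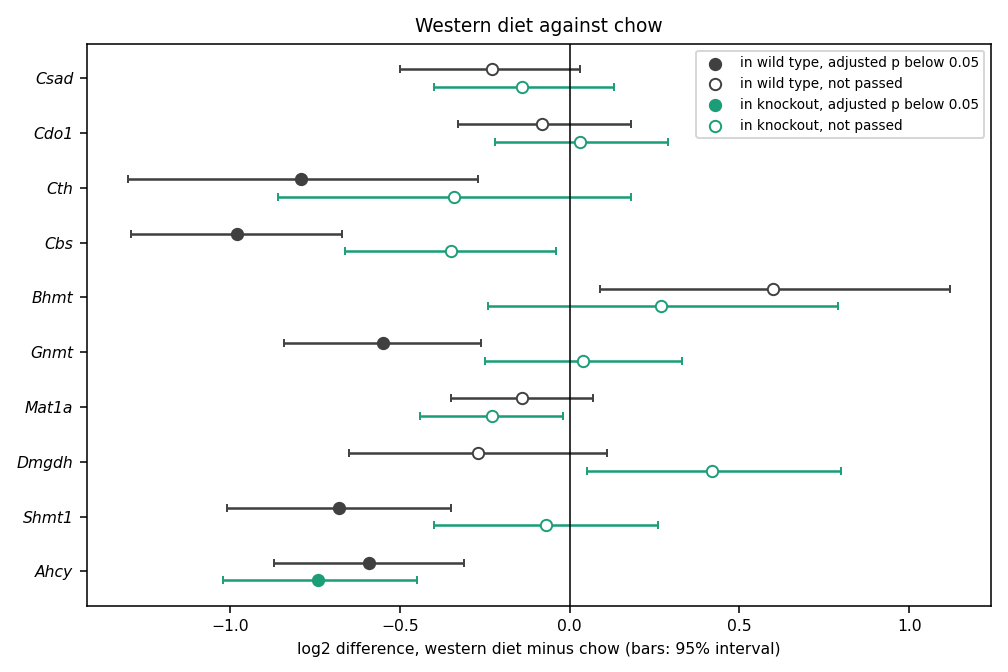
Log2 difference, western diet minus chow, of each enzyme gene in wild type (black) and in knockout (green), with 95% intervals from limma, n = 4 per group. Filled points passed at an adjusted p below 0.05: Cth, Cbs, Gnmt, Shmt1 and Ahcy in wild type, and Ahcy in knockout, where the differences span -0.74 to 0.42.

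Gnmt, Shmt1 and Cth were lower with diet in wild type and higher in knockout on western diet. Both comparisons use the same 4 wild type samples on western diet, so these are not separate observations. The test that bears on it is the difference between the diet effects of knockout and wild type, which passed for 0 of the 10 (7.05% of all genes, 2.29% higher and 4.76% lower). An unadjusted p below 0.05 was reached by 4 of 10, where 21.6% of all genes reached it: Cbs (0.63 ± 0.21, adjusted p = 0.0761), Gnmt (0.59 ± 0.20, adjusted p = 0.0765), Dmgdh (0.69 ± 0.26, adjusted p = 0.113) and Shmt1 (0.61 ± 0.22, adjusted p = 0.114). Gnmt passed with median scaling (0.78, adjusted p = 0.0374) and without knockout chow replicate 3 (0.72, adjusted p = 0.0213), and its second probe gave 0.71 ± 0.21 (adjusted p = 0.0495). Cbs passed with array weights (0.73, adjusted p = 0.0228) and on western diet when wild type replicate 2 (0.80, adjusted p = 0.0107) or knockout replicate 3 (0.79, adjusted p = 0.0124) was dropped. For Cth the difference was 0.45 ± 0.35 (adjusted p = 0.504) and for Ahcy -0.15 ± 0.19 (adjusted p = 0.706).

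Liver samples are mixtures, and fewer hepatocytes cannot be told apart here from less RNA of a gene per hepatocyte. Of 11 macrophage markers tested, 10 rose with western diet in wild type (15.5% of all genes) and 10 were lower in knockout on western diet (11% of all genes). Their summed level spanned 2510 to 3750 in wild type on chow, 2640 to 3260 in knockout on chow, 7930 to 15100 in wild type on western diet and 3210 to 4180 in knockout on western diet. Cd5l, a further marker, was detected in 0 arrays, and of the 11, Gpnmb was detected in 10 and Trem2 in 11 of 16. Of 10 stellate cell and fibroblast markers, 7 rose with diet in wild type (15.5% of all genes) and 6 were lower in knockout on western diet (11%). Summed levels were 4920 to 6530 in wild type on western diet and 3020 to 3980 in knockout on western diet. Col1a2 and Timp1 were detected in 7 of 16 arrays, Pdgfrb in 8, and Col1a1 and Col3a1 in 9. All of these rose with diet in wild type, so the counts rest in part on probes at background in other samples. The 5 enzyme genes that fell in wild type on western diet thus fell in the samples where these markers were highest, and the part of the markers in those differences was not tested. For genotype on chow 0 of the 11 macrophage and 0 of the 10 stellate markers passed. Only 0.836% of all genes passed there, so counts of 0 do not bear on the Csad difference. Of the endothelial, cholangiocyte and lymphocyte markers, 2 of 8, 0 of 2 and 0 of 6 passed for genotype on western diet (19.8% of all genes), both lower in knockout. Of 7 hepatocyte markers, 1 rose and 2 fell with diet in wild type (15.5% and 14.1% of all genes), with a median of 0.08. For genotype on western diet 2 rose and 1 fell in knockout (8.82% and 11% of all genes), with a median of 0.12. Alb was 1 of those 2 (0.58 ± 0.17). Its probe was detected in 8 of 16 arrays, mostly knockout as given above, so this rise is a description and not a test.

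Zonal markers of hepatocytes also moved. Of 6 periportal markers, 5 fell with diet in wild type (14.1% of all genes) and 3 in knockout (3.36%), with medians of -0.58 and -0.47. For genotype on western diet 1 of the 6 was higher in knockout and 2 lower (median -0.07, range -1.38 to 1.25). Of all genes 8.82% were higher there and 11% lower. Of 7 pericentral markers, 4 rose in knockout on western diet and 0 fell (median 0.59), against those same shares of all genes. With diet 2 rose and 3 fell in wild type (15.5% and 14.1% of all genes). In knockout 2 rose and 1 fell with diet (4.52% and 3.36%). On chow 1 periportal marker was lower in knockout and 0 pericentral markers passed, where 0.836% of all genes passed. Their part in the differences of the 10 enzymes was not tested.

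Of 7 genes tested in the taurine and bile acid conjugation list, 0 passed for genotype on chow, where 0.836% of all genes passed. On western diet 1 rose and 1 fell in knockout, where 8.82% of all genes were higher and 11% lower. Slc6a6, the taurine transporter, had mean levels of 10.21 ± 0.33 and 10.60 ± 0.16 in wild type and knockout on chow, and of 10.63 ± 0.21 and 10.18 ± 0.15 on western diet (SD, n = 4). It was lower in knockout on western diet (-0.45 ± 0.14, adjusted p = 0.0299) and its diet effect differed between the genotypes (-0.85 ± 0.20, adjusted p = 0.0147). The first call was lost when replicate 1, 2 or 4 of wild type or 3 or 4 of knockout on western diet was dropped (adjusted p up to 0.101), and the second with median scaling (adjusted p = 0.0633). Slc27a5, the ligase that activates bile acids before conjugation, rose in knockout on western diet (0.39 ± 0.11, adjusted p = 0.0132), a call lost with median scaling and when wild type replicate 2 on western diet was dropped (adjusted p up to 0.0526). Baat, the transferase that joins taurine to bile acids, was chosen for its role after its values were seen, and its genotype difference was 0.19 ± 0.11 on chow (95% interval -0.05 to 0.42, adjusted p = 0.608) and 0.24 ± 0.11 on western diet (adjusted p = 0.148).

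Bile acid synthesis itself was called in 1 of 11 genes on chow (0.836% of all genes), Cyp7a1, the rate-limiting hydroxylase. Its levels were 7.74 ± 0.47 in wild type and 10.39 ± 0.76 in knockout on chow, and 9.86 ± 0.98 and 11.48 ± 0.22 on western diet (SD, n = 4). Cyp7a1 also rose with diet in wild type (2.12 ± 0.38, adjusted p = 0.000401), where the difference of Csad was -0.23 ± 0.13. On western diet 5 of the 11 were higher in knockout and 1 lower, where 8.82% of all genes were higher and 11% lower. Akr1c6, 1 of the 5 (0.61, adjusted p = 0.025), was near background. It was detected in 3 of 4 wild type and 4 of 4 knockout samples on western diet, and in 0 and 1 of 4 on chow. Its call was lost under 7 of 28 alternatives (adjusted p up to 0.085). The largest changes were those of Cyp7b1, a hydroxylase of the alternative branch (2.29 ± 0.28, adjusted p = 1.31e-05), and Cyp7a1 (1.62 ± 0.38, adjusted p = 0.00533). Unlike Cyp7a1, Cyp7b1 did not pass for genotype on chow (-0.15, adjusted p = 0.904). With diet Cyp7b1 fell in wild type (-2.39, adjusted p = 4.64e-06) and differed by 0.04 in knockout (adjusted p = 0.955). Its diet effect differed between the genotypes (2.44, adjusted p = 0.00106).

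The neighbouring sulfur and glutathione list had 9 genes tested. On chow 1 was lower in knockout (0.396% of all genes), Chac1, which degrades glutathione (-1.14 ± 0.23, adjusted p = 0.0189). That call was lost without wild type chow replicate 2, 3 or 4 or knockout chow replicate 1, 2 or 4 (adjusted p up to 0.0866). On western diet 4 rose in knockout and 2 fell (8.82% and 11% of all genes). They were led by Chac1 (-1.06 ± 0.23, adjusted p = 0.00303) and Got1, an aspartate transaminase that can also act on cysteine sulfinate (0.77 ± 0.22, adjusted p = 0.0200). The Got1 call was lost with median scaling and when replicate 4 of either genotype on western diet was dropped (adjusted p up to 0.184). With diet in wild type 2 rose and 3 fell (15.5% and 14.1% of all genes), Chac1 by 1.46 ± 0.23 upward and Got1 by -1.16 ± 0.22. With diet in knockout 1 rose, Chac1 by 1.54 (adjusted p = 0.000925), and 0 fell (4.52% and 3.36% of all genes). The Got1 difference there was -0.16 (adjusted p = 0.72). The difference between the diet effects did not pass for Chac1 (0.09, adjusted p = 0.92) or Got1 (1.00, adjusted p = 0.0615).

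Of 12 further genes of the methionine cycle and methyl transfer 0 passed for genotype on chow (0.836% of all genes). On western diet 2 rose in knockout (8.82% of all genes). These were Nnmt, nicotinamide N-methyltransferase (1.17 ± 0.25, adjusted p = 0.00250), and Pemt, which methylates phosphatidylethanolamine (0.53 ± 0.10, adjusted p = 0.000829). Nnmt fell 3.23-fold with diet in wild type (-1.69 ± 0.25, adjusted p = 5.8e-05), and its diet effect differed between the genotypes (1.6 ± 0.35, adjusted p = 0.01). Gamt, which makes creatine with a methyl group, rose with diet in knockout (1.03 ± 0.25, adjusted p = 0.0172), a call lost without knockout western replicate 3 (adjusted p = 0.0520). In wild type the Gamt diet difference had the same sign (0.57, adjusted p = 0.0952). The difference between the diet effects did not pass (0.46, adjusted p = 0.5).

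Of 6 genes of choline, betaine and sarcosine oxidation, 0 passed for genotype on chow (0.836% of all genes). On western diet 2 rose in knockout (8.82% of all genes). Pipox, a peroxisomal sarcosine oxidase, was 8.94 ± 0.02 in wild type and 9.06 ± 0.15 in knockout on chow, and 8.20 ± 0.12 and 8.99 ± 0.07 on western diet (SD, n = 4). Its difference between diet effects was 0.66 ± 0.13 (adjusted p = 0.00338), lost with median scaling (adjusted p = 0.150). Sardh, the mitochondrial sarcosine dehydrogenase downstream of Dmgdh, rose in knockout on western diet (0.74 ± 0.17, adjusted p = 0.00518), a call lost with median scaling (adjusted p = 0.101). Slc44a1, a choline transporter, rose with diet in wild type (1.07 ± 0.16) and in knockout (0.61, adjusted p = 0.0253). The call in knockout was lost under 5 of 28 alternatives (adjusted p up to 0.208). The difference between the diet effects did not pass (-0.45, adjusted p = 0.261).

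In the folate list 0 of 17 genes passed for genotype on chow, where 0.836% of all genes passed. On western diet 4 rose in knockout and 0 fell, where 8.82% of all genes were higher and 11% lower. Shmt2, the mitochondrial partner of Shmt1, rose there by 0.68 ± 0.11 (adjusted p = 0.000293), and by 0.34 when its detected probes were averaged (adjusted p = 0.115). Slc46a1, a folate carrier, rose by 0.60 ± 0.12 (adjusted p = 0.00167), a call lost with median scaling (adjusted p = 0.0705). With diet in wild type 1 rose and 4 fell (15.5% and 14.1% of all genes). Among those that fell was Mthfd1, which interconverts folate carbon units in the cytosol (-0.56 ± 0.11, adjusted p = 0.000817, and -0.37 with median scaling, adjusted p = 0.0871). Mthfd2, which rose, was detected in 4 of 4 wild type samples on western diet and in 1 of 4 on chow. It passed the detection filter through the former, so its rise (0.47, adjusted p = 0.0471) is a description and not a test. That call was lost under 13 of 27 alternatives (adjusted p up to 0.194). In the serine list Agxt, a transaminase that uses serine and alanine, fell with diet in wild type (-1.23 ± 0.17). Psat1, a step of serine synthesis, was detected in 0 of 4 wild type samples on chow and in 4 of 4 on western diet, at least 2.1-fold higher (measured mean levels 4.50 and 5.84). Psat1 passed the detection filter through those western diet samples, so its difference is a description and not a test. It was detected in 0 of 4 knockout samples on chow and in 1 of 4 on western diet.

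**Figure D4:**
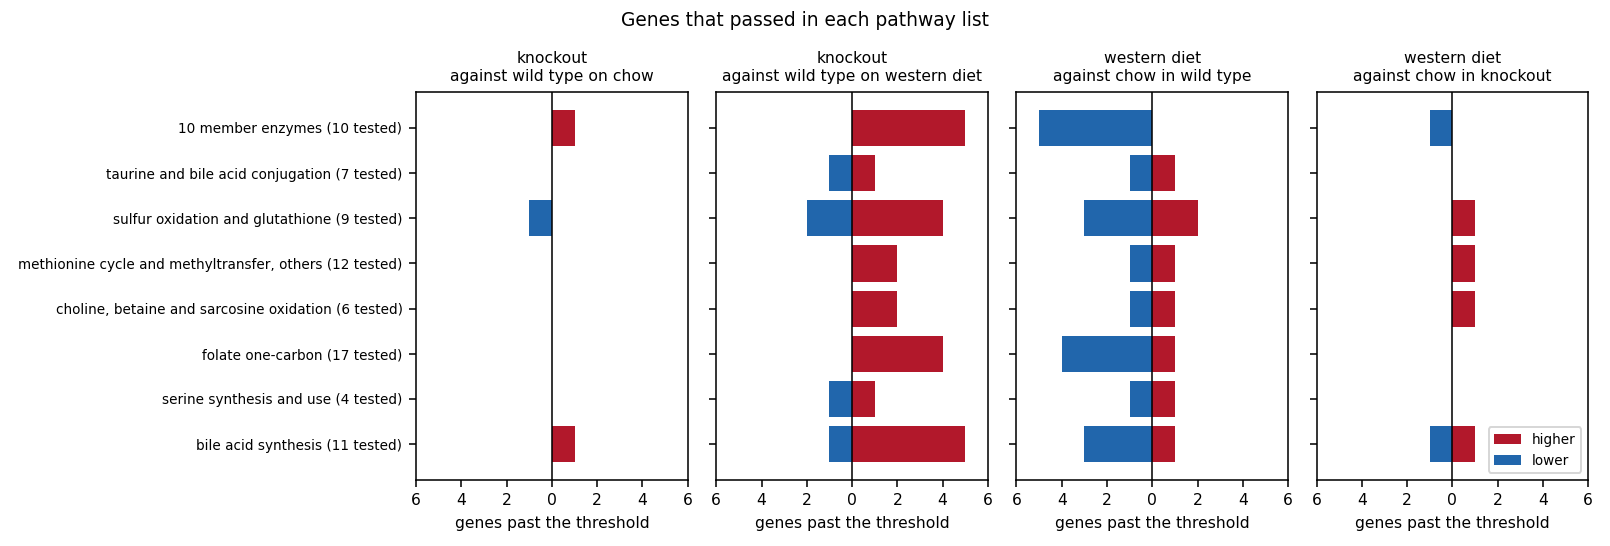
Number of genes that passed at an adjusted p below 0.05, higher to the right and lower to the left, in the 10 enzymes and in 7 lists of related genes, for the genotype and diet comparisons. On chow 1 enzyme and 1 bile acid synthesis gene were higher in knockout and 1 sulfur and glutathione gene was lower, and the other lists had 0. Over all genes 0.836% passed for genotype on chow and 19.8% on western diet, and 29.6% for diet in wild type and 7.88% in knockout. The counts include Psat1 and Mthfd2, which passed the detection filter through wild type on western diet. They also include the bile acid synthesis gene Akr1c6. It was detected in 0 of 4 wild type and 1 of 4 knockout samples on chow, and in 3 of 4 and 4 of 4 on western diet.

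The genes most like Csad were ranked by the root mean square difference of log2 values centred on each gene's own mean over the 16 arrays. They were Cav1, a coat protein of caveolae (0.47), Slc17a8, a vesicular glutamate transporter (0.53), and Mmd2 (0.58), against a median of 1.02 over all genes. They were chosen for following Csad over these same arrays, so their differences are given as a description and not as a test. Cav1 differed by 2.40 ± 0.20 on chow and 2.67 ± 0.20 on western diet, and Mmd2 by 1.56 ± 0.24 and 1.18 ± 0.24. Slc17a8 differed by 1.07 ± 0.24 on chow and by 1.26 ± 0.24 on western diet.

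The genes most like Dmgdh by the same measure were Hsd17b6, a hydroxysteroid dehydrogenase (0.28), Cyp4a12a, a fatty acid hydroxylase of male mouse liver (0.29), and Slc25a13, the mitochondrial aspartate and glutamate carrier (0.29), against a median of 0.65. These too were chosen on the arrays in which they are described. Their knockout minus wild type differences were 0.96 ± 0.18, 1.10 ± 0.20 and 0.98 ± 0.16 on western diet, and 0.85 ± 0.18, 0.75 ± 0.20 and 0.27 ± 0.16 on chow. In the gene table of GRCm38.p6 none of the 10 enzymes lay on the chromosome of Nr0b2 (0 of 10). Bhmt and Dmgdh lay on one chromosome with 1 annotated gene start between them.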

How the data were processed

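The deposited non-normalized table gives for every probe the intensity on each array, and beside it a detection p-value, per the file headers. The submitters' processing notes name BeadStudio, with no version. A second deposited table holds processed intensities whose quantiles nearly coincide between arrays and which include negative values; its settings are not given in the sources used here. Here 25697 probes were normalized with neqc of limma 3.58.1 (R 4.3.3, offset 16), with the negative control signal inferred from the detection p-values. A probe was kept where 4 or more of the 16 arrays detected it (p under 0.05), and the brightest probe per gene of 12421 named ones gave 9095 genes. Probes were named by the platform annotation (23978 with 1 symbol, 0 with several, 1719 with none). limma fitted 1 mean per group with an intensity trend (12 residual degrees of freedom), two-sided, and the fit was tested on simulated data. Bounds against a group at background use, per array, the higher of the dimmest detected signal and the probe's own. Alternatives changed the background correction, scaling, source table, detection filter, probe rule, variance model, arrays fitted and replicate block. Slides are not given in the sources used here.

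The members, lists, alternatives and tests were chosen with earlier results of these data known. The rule for names took all members, at most the 2 largest called changes per list and comparison, and the 3 genes nearest to Csad and to Dmgdh. Baat and the marker genes fall outside it and were named after their values were seen. Plots were drawn with matplotlib 3.10.9. The number of arrays limits the precision.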

Additional observations from a re-analysis of the deposited data

Results flagged for a closer look

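A sample far from the other 3 of its group was found in 4 of the 40 groups of values tested, where chance gives about 1 in 20. Cth was 9.38 in wild type chow replicate 4, against 10.15 to 10.27 in the others. Cbs was 9.87 in knockout western replicate 3, against 10.48 to 10.52. Dmgdh was 9.58 in wild type chow replicate 1, against 9.12 to 9.15. Dmgdh was also 9.42 in knockout chow replicate 2, against 10.10 to 10.18, and the same sample had the lowest Cth (9.86) and Gnmt (14.16) of its group.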

How the results depend on the processing

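Results were recomputed under up to 12 processing alternatives and without each of the 16 arrays. Fitting only the arrays compared was not run for the difference between diet effects, which uses all 16, and Mthfd2 had 1 alternative fewer than the other genes. Of 590 member values under processing alternatives 572 kept direction and side of the threshold, 3 lost a call, 6 gained one and 9 that had not passed changed sign. Without 1 array the counts were 769, 5, 12 and 14 of 800. No called member reversed. The number of members called for genotype on chow was 1, and 3 with only the arrays compared, 2 with array weights and 2 with the replicate block. The number called for diet in wild type was 5, and 3 with median scaling. For the difference between diet effects it was 0, and 1 with median scaling and with array weights. Without 1 array these counts ranged from 1 to 2, 4 to 6 and 0 to 1, from 5 to 6 for genotype on western diet, and stayed at 1 for diet in knockout. Among all genes the count for genotype on chow was 76, with 124 under array weights and 49 when replicate 3 of wild type on chow was dropped. For diet in knockout it was 717, with 347 under median scaling, 359 without knockout chow replicate 2 and 476 without knockout western replicate 4. Median scaling split the calls 21 up and 39 down for genotype on chow (40 and 36 before), 297 and 50 for diet in knockout (411 and 306) and 75 and 503 for the difference between diet effects (208 and 433). In the main fit replicate numbers were not used as pairs. Deviations of same-numbered samples correlated between -0.166 and 0.186, and 7 of 16 arrays were closest to one with their own number. Whether the numbers mark a shared batch was not tested. The causes were not tested. The second Cth probe, at background, gave no check of the first.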
